A study of Mus musculus with 8 samples.

Results

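The genes described here are Cd207, which encodes langerin, and 8 genes used to recognise dendritic cells: Itgae, Clec9a, Cd209a, Flt3, Zbtb46, Batf3, Siglech and Itgax. They are 9 of the 30627 genes tested on an Affymetrix whole-transcript array. They were picked by name, with Cd207 already known to be among the genes that differed most between the groups, so every group difference below is a description and none of the p-values is independent evidence. Each of the 9 had 1 probe set that the platform annotation assigns to exactly 1 gene. Liver RNA came from 8 male C57BL/6 mice, all fed a high fat diet over 13 weeks. One group of 4 was given 5 intraperitoneal doses of anti-miR-128-3p, an antisense agent against a microRNA (treated livers below), and the other group of 4 was given a control that the labels call a vehicle in one place. A protocol field of the labels names the microRNA itself as the injected agent, and the groups here follow the titles, which name the inhibitor. All 8 livers carry the diet, so no liver on a normal diet serves as a baseline. Each array was taken as 1 mouse, which the labels imply without stating it. The p-values of group differences (limma) set each difference against the spread within the groups of these 8 arrays, moderated over all genes.

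Dendritic cells take up antigen, carry it to lymph nodes and show it to T cells, and their precursors depend on the receptor Flt3 and its ligand. In mice, type 1 conventional dendritic cells need the transcription factor Batf3 and carry Clec9a and, in many tissues, the integrin chain encoded by Itgae. Type 2 cells include many that carry Cd209a, plasmacytoid cells carry Siglech, and Zbtb46 marks the conventional lineage. Langerin is a C-type lectin of Langerhans cells in the skin, where it forms Birbeck granules, and of some type 1 dendritic cells in mice. In whole liver RNA, fewer cells of a type and less RNA per cell cannot be told apart.

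The microRNA that the treatment is meant to block is shown first because it is the only designed target in the study. Both mouse genes for it, Mir128-1 on chromosome 1 and Mir128-2 on chromosome 9, give the same mature RNA of 21 bases. In the RefSeq sequence (GRCm38.p6) the capitals mark the seed, bases 2 to 8.
mmu-miR-128-3p: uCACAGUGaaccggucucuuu

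Promoter windows, also from RefSeq on GRCm38.p6, run from 250 bases before to 50 bases after the gene's start and were found for 8 of the 9 genes. The 3 windows printed are those that hold the letters TGANTCA, a site for AP-1 factors, a class to which Batf3 belongs. They were chosen after the matches and the values were seen, to set Cd207, whose groups were separate, beside Zbtb46 and Itgax, whose groups were not. Capitals mark every match, on either strand, to these letters and to those of the other motifs searched. For PU.1, a factor of myeloid cells, the letters searched were GAGGAA. For the RUNX factors they were TGTGGT. For the interferon regulatory factors they were GAAANNGAA. For the TATA box they were TATAAA. No match overlapped another in the windows printed.
Cd207, chr6:83677808-83678107, minus strand: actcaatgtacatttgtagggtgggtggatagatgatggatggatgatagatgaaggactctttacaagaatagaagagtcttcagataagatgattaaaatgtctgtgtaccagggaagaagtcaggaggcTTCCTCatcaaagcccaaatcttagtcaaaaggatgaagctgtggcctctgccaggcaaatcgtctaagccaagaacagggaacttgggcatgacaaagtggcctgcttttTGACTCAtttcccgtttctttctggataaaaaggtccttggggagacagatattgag
Zbtb46, chr2:181424339-181424638, minus strand: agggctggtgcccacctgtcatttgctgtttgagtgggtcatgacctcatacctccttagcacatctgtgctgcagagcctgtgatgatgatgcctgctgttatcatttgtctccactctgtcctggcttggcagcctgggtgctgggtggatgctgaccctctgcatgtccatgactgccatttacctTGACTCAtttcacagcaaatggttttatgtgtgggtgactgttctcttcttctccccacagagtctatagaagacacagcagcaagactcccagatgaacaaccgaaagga
Itgax, chr7:128129300-128129599, plus strand: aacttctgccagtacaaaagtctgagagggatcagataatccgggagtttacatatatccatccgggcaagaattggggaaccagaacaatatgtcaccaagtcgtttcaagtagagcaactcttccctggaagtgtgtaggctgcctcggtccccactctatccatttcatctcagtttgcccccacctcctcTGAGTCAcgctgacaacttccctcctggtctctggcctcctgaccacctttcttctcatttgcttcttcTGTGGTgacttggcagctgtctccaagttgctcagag

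TGANTCA began 7 bases before the start of Cd207, 61 bases before that of Zbtb46 and 56 bases before that of Itgax. It was present in 3 of the 8 windows, against 7.81% of all 32851 promoter windows. The PU.1 letters were present in 3 windows, those of Cd207, Batf3 and Siglech, against 28.3% of all. The RUNX letters were in 2 windows (16.8% of all), the TATA letters in 2 (13.6%) and the interferon factor letters in 1, that of Clec9a (8.56%). These are matches of letters in short windows, not binding sites.

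Cd207 was lower in every liver of the anti-miR-128-3p group than in any control liver. Its log2 signals were 5.60, 6.46, 6.33 and 5.97 in treated replicates 1 to 4, against 7.53, 7.22, 6.86 and 7.65 in control replicates 1 to 4. The means were 6.09 ± 0.39 in treated livers and 7.32 ± 0.36 in control livers (log2 signal, SD, n = 4 each). The treated livers thus averaged 2.34-fold less signal, a log2 difference of -1.22 ± 0.22 (SE), with a 95% interval from -1.72 to -0.73. The gap between the highest treated and the lowest control liver was 0.40 on the log2 scale. Treated replicate 1 was the lowest of all and control replicate 4 the highest. The difference did not pass the correction over all genes (limma adjusted p = 0.202), and neither did that of any other gene on the array, the smallest adjusted p being 0.194. By size, 11 of the 30627 genes were lower by as much as Cd207 or more, itself included.

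The other 8 genes showed no separation between the groups, and their log2 differences ran from -0.09 for Cd209a to 0.14 for Clec9a. Treated and control livers overlapped in all 8. Of the 9 genes, 5 were lower and 4 higher in treated livers. This count includes Itgae, Flt3 and Itgax, whose signs turned when single livers were left out. The median log2 difference of the 9 genes was -0.0045, against a median of -0.0017 over all genes. With single livers left out, the median of the 9 genes ran from -0.0146 to 0.0043. Non-overlapping groups with the treated livers lower were seen in 1 of the 9, and in 1.89% of all genes. With the treated livers higher they were seen in 0 of the 9, and in 2.52% of all genes. At an unadjusted p under 0.05 there was 1 of the 9, again Cd207, beside 7.63% of all genes, and at an adjusted p under 0.05 there were 0 of the 9 and 0.0% of all genes by limma. Since Cd207 was picked for this contrast, the counts that include it carry no weight of their own.

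**Figure D1:**
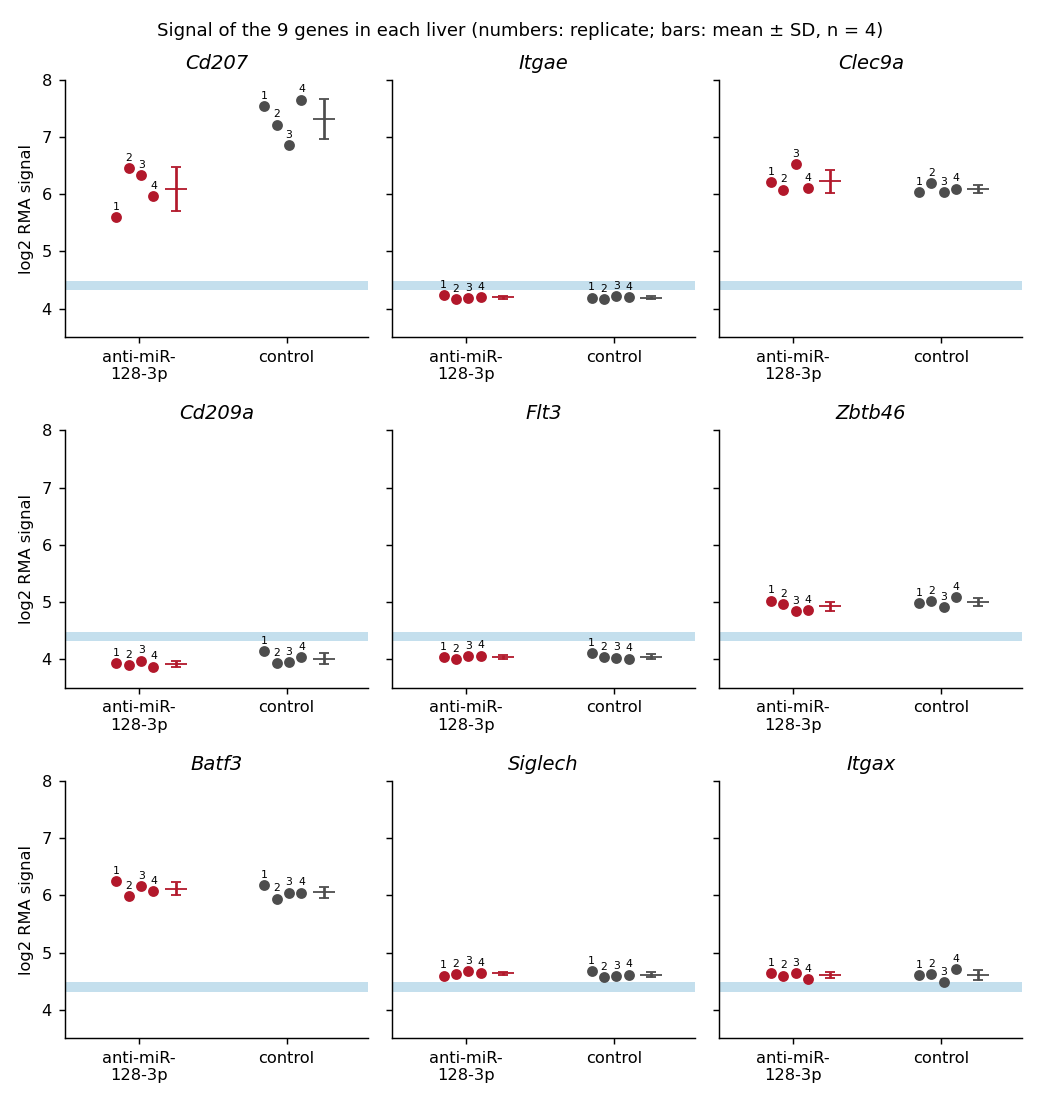
Log2 RMA signal (vertical axis, the same in all panels) of the 9 genes in each liver, anti-miR-128-3p on the left and control on the right of each panel. Points are livers with their replicate number, bars are mean ± SD (n = 4), and the blue band spans the medians of the negative control rows, 4.32 to 4.48. Cd207 separates into 2 sets of 4, while the other 8 genes overlap.

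Among the genes of type 1 dendritic cells, Clec9a encodes a lectin that binds actin filaments exposed by dead cells. Its log2 signals were 6.21, 6.08, 6.52 and 6.11 in treated livers, against 6.03, 6.19, 6.04 and 6.10 in control livers. Treated replicate 3 stood above the others, and the difference of 0.14 ± 0.10 (limma adjusted p = 0.809) was 0.04 without it. That liver also had the highest score of the interferon-induced list described below, and whether the levels are linked was not tested.

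Batf3, the transcription factor on which type 1 cells depend, was at 6.24, 5.98, 6.16 and 6.07 in treated livers and at 6.17, 5.94, 6.05 and 6.05 in control livers. Its groups overlapped throughout (difference 0.06 ± 0.07, 95% interval -0.10 to 0.22). Itgae encodes the integrin chain CD103. It was at 4.24, 4.17, 4.18 and 4.20 in treated livers and at 4.19, 4.17, 4.22 and 4.20 in control livers. This was the flattest of the genes, with a difference of 0.0018 ± 0.04 and an interval from -0.09 to 0.09.

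Cd209a, a mouse relative of the pathogen-binding lectin DC-SIGN and common on type 2 dendritic cells, was at 3.93, 3.89, 3.97 and 3.87 in treated livers. In control livers it was at 4.14, 3.93, 3.94 and 4.04, so that the groups overlapped through control replicates 2 and 3. The difference was -0.09 ± 0.06 (limma adjusted p = 0.774), with an interval from -0.23 to 0.04. Siglech, a sialic-acid-binding receptor of mouse plasmacytoid cells, was at 4.60, 4.63, 4.68 and 4.64 in treated livers and at 4.68, 4.57, 4.59 and 4.62 in control livers. The most extreme values of the 2 groups lay close together (difference 0.02 ± 0.04, interval -0.08 to 0.12).

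Zbtb46, a zinc finger factor of conventional dendritic cells, was at 5.02, 4.96, 4.84 and 4.86 in treated livers and at 4.98, 5.01, 4.91 and 5.08 in control livers. Treated replicates 3 and 4 were the lowest of the 8, and the groups overlapped (-0.07 ± 0.06, interval -0.21 to 0.06). Flt3, the growth factor receptor of dendritic cell precursors, was at 4.04, 4.00, 4.05 and 4.06 in treated livers and at 4.11, 4.04, 4.03 and 4.01 in control livers, with a difference of -0.0091 ± 0.04. Itgax encodes CD11c, an integrin chain of dendritic cells and of some macrophages. It was at 4.64, 4.60, 4.64 and 4.53 in treated livers and at 4.61, 4.63, 4.49 and 4.71 in control livers, with a difference of -0.0045 ± 0.06. The sign of the Itgae, Flt3 and Itgax differences turned under some settings and when single livers were left out, so no direction is given for these 3 genes.

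**Figure D2:**
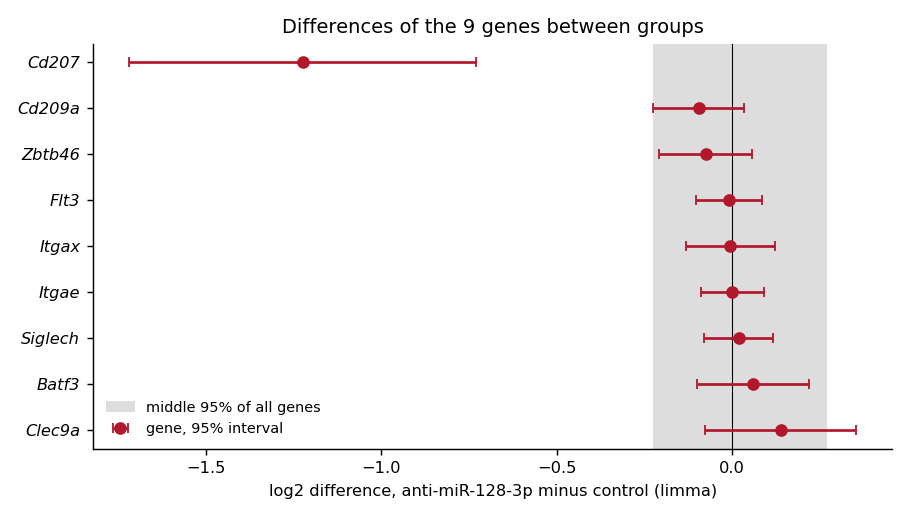
Log2 difference between anti-miR-128-3p and control livers (horizontal axis) for the 9 genes, with limma's 95% intervals. The grey band holds the middle 95% of all 30627 genes, from -0.22 to 0.27. Cd207 lies at -1.22, and the intervals of the other 8 genes, which include 0, reach from -0.23 at the lowest to 0.36 at the highest.

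How much the flat genes can show is limited by their signal. The deposited table holds no detection call, so each gene was set against the 5222 rows whose names mark them as negative controls; what their probes match is not given in the sources used here. These rows are themselves broad, with medians of 4.32 to 4.48 and a 95th percentile of 7.40 to 7.53 on the 8 arrays. Cd207 was above 76.2% to 96.1% of the negative control rows of the same array, its mean lay 2.32 above their median, and it passed their 95th percentile in control replicates 1 and 4. Clec9a (81.3% to 88.4%) and Batf3 (79.9% to 85.3%) also lay in the upper part. None of the other 8 genes passed the 95th percentile on any array. Zbtb46 was above 61.1% to 67.4% of these rows, Itgax above 52.6% to 60.0% and Siglech above 53.3% to 58.0%. Itgae (42.3% to 47.9%), Flt3 (38.1% to 43.4%) and Cd209a (35.5% to 44.2%) were below the middle of the negative control rows on every array. For the last 3, and largely for Siglech and Itgax, a difference in RNA could go unseen, and the narrow intervals do not show that the RNA was equal. Clec9a, Batf3 and Zbtb46 could also show less than the full difference. The spread within groups was correspondingly small, with SDs of 0.03 to 0.15 for the 8 genes. For Cd207 it was 0.37, larger than in 97.3% of all genes, where the median was 0.10.

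**Figure D3:**
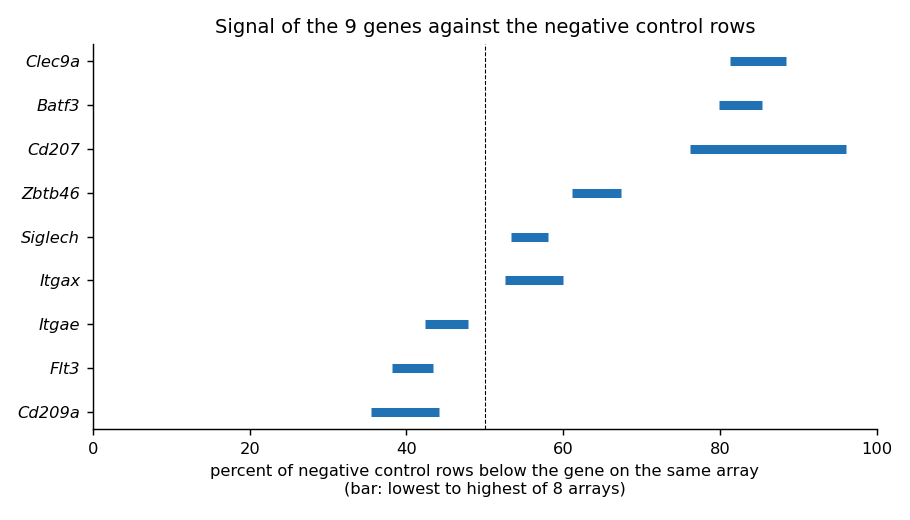
Share of the negative control rows that lay below each gene on the same array (horizontal axis, percent), drawn as a bar from the lowest to the highest of the 8 arrays. Cd207, Clec9a and Batf3 lie above 76% throughout, and Itgae, Flt3 and Cd209a lie under the dashed line at 50%.

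Wider lists for each kind of dendritic cell had medians close to 0, but some of their genes were dim. Below the middle of the negative control rows on every array lay 2 of 11 type 1 genes, 3 of 11 type 2 genes, 2 of 12 plasmacytoid genes and 1 of 10 Langerhans cell genes. Of 11 type 1 genes, all measured, 7 were higher and 4 lower in treated livers (median log2 difference 0.03), and 0 had an unadjusted p under 0.05. The chemokine receptor gene Xcr1, a defining marker, was above only 20.4% to 24.1% of the negative control rows, so its difference of -0.0150 ± 0.05 shows nothing about its RNA. Wdfy4, needed for cross-presentation, differed by 0.12 ± 0.08, Naaa by 0.11 ± 0.10, Irf8, the lineage factor, by 0.08 ± 0.08 and Snx22 by -0.04 ± 0.06. With single livers left out, Wdfy4 ran from 0.06 to 0.17 and Naaa from 0.02 to 0.17. Irf8 then ran from 0.04 to 0.15 and Snx22 from -0.07 to -0.01. None passed the adjusted threshold.

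Of 11 type 2 genes 8 were higher (median 0.04). Sirpa, the receptor for CD47 and a gene that macrophages express as well, was at 8.39, 7.46, 7.84 and 7.97 in treated livers and at 7.22, 7.70, 6.91 and 7.32 in control livers, a difference of 0.63 ± 0.21 that did not pass (limma adjusted p = 0.509). It was the only one of the 11 with an unadjusted p under 0.05. The lectin genes Clec12a and Mgl2 differed by 0.34 ± 0.18 and 0.10 ± 0.05, the NF-kB subunit gene Relb by 0.12 ± 0.06 and the lineage factor gene Irf4 by 0.07 ± 0.07.

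Of the 12 plasmacytoid genes measured (13 listed), 6 were higher and 6 lower (median 0.0026). The one whose groups did not overlap was Irf7, which interferon also induces in other cells: it was at 8.88, 8.33, 9.16 and 8.68 in treated livers and at 6.77, 7.69, 6.62 and 7.87 in control livers. Its difference was 1.52 ± 0.30 (limma adjusted p = 0.208). Bst2, likewise interferon-induced, differed by 0.71 ± 0.55, but by 0.04 without control replicate 1. Ly6d differed by -0.22 ± 0.17 and Cox6a2 by -0.16 ± 0.08, and with control replicate 1 left out they differed by -0.07 and -0.09. The receptor gene Ccr9 differed by -0.0043 ± 0.04, at 32.9% to 36.8% of the negative control rows. Tcf4, the lineage factor, differed by 0.0096 ± 0.05.

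Of the genes of mature dendritic cells that migrate to lymph nodes, 4 of the 7 measured (9 listed) were higher, with a median of 0.01. Their homing receptor gene Ccr7 differed by 0.10 ± 0.05, the actin-bundling gene Fscn1 by 0.06 ± 0.08, Ccl17 by -0.10 ± 0.07 and Apol7c by -0.08 ± 0.07. MHC class II and costimulation genes were lower in 6 of the 11 measured (12 listed), with a median of -0.04. Leaving out control replicate 4 gave a median of 0.04, and leaving out control replicate 3 gave -0.08. The class II chains H2-Ab1 and H2-Aa differed by -0.33 ± 0.26 and -0.24 ± 0.21, and the costimulatory genes Cd86 and Cd80 by 0.23 ± 0.12 and 0.10 ± 0.07, none passing. Without control replicate 3 the Cd86 and Cd80 differences were 0.12 and 0.05, and without control replicate 4 they were 0.32 and 0.15.

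The other genes on the Langerhans cell list had log2 differences from -0.04 to 0.42, against -1.22 for Cd207. Several of them are not particular to Langerhans cells, such as Csf1r, which is also on the macrophage list. The list therefore cannot show whether Langerhans cell RNA changed. Of the list's 10 genes, Cd207 included, 5 were higher and 5 lower, with a median of 0.0006. Epcam, an adhesion gene that Langerhans cells share with bile duct cells, differed by -0.03 ± 0.05, but it was above only 41.0% to 47.0% of the negative control rows, where a difference in RNA could go unseen. The factor gene Runx3 differed by 0.0073 ± 0.05 and Il34, a growth factor for Langerhans cells, by -0.03 ± 0.07. Ahr, the receptor for dioxin and related compounds, was higher in every treated liver, at 8.81, 8.95, 8.73 and 9.02, than in any control liver, at 8.64, 8.35, 8.69 and 8.31. Its difference of 0.38 ± 0.10 did not pass (limma adjusted p = 0.369). The TGF-beta receptor genes Tgfbr1 and Tgfbr2 differed by -0.0061 ± 0.05 and 0.20 ± 0.15.

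Partners and ligands of the 9 genes were also measured, and none passed the adjusted threshold. Of the 8 partners and ligands measured (9 listed) 7 were higher in treated livers (median 0.08), and of 11 growth factor and lineage genes measured (14 listed) 8 (median 0.04). Itgb7, the partner chain of Itgae, differed by 0.06 ± 0.05. Cdh1, which encodes the ligand E-cadherin, was at 7.65 to 7.74 in treated livers and at 6.68 to 8.27 in control livers. Its difference of 0.42 ± 0.30 was 0.76 with control replicate 4 left out, and 0.26 or 0.23 with control replicate 1 or 2 left out. Itgb2, the partner chain of Itgax, differed by 0.24 ± 0.19 and Tyrobp, an adaptor through which Siglech signals, by 0.25 ± 0.20. Without control replicate 3 both were 0.07, without treated replicate 1 they were 0.15 and 0.14, and without treated replicate 2 they were 0.37 and 0.39. Flt3l, the ligand of Flt3, differed by 0.04 ± 0.06. Id2, a repressor that conventional dendritic cells need, differed by -0.55 ± 0.28, and by -0.35 without control replicate 2. Its log2 signal averaged 10.2 in treated and 10.7 in control livers, far above that of Flt3. The cells behind the Id2 signal cannot be told from whole liver RNA. The haematopoietic factor gene Ikzf1 differed by 0.21 ± 0.08 and the growth factor gene Csf2 by 0.10 ± 0.05. Csf2 was above only 41.2% to 47.1% of the negative control rows.

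By position, Cd207 lies next to another C-type lectin gene, Clec4f, a marker of Kupffer cells in mice. Clec4f was at 9.38, 8.48, 9.15 and 9.30 in treated livers and at 8.42, 8.78, 8.13 and 8.98 in control livers. The groups overlapped through treated replicate 2, and the difference was 0.50 ± 0.23 (limma adjusted p = 0.676), opposite in sign to that of Cd207. Of the next protein-coding genes on either side, which were chosen after their values were seen, Stambp differed by -0.10 ± 0.07, Vax2 by 0.17 ± 0.06 and Atp6v1b1 by 0.02 ± 0.05. Order along the chromosome was read from the RefSeq table of GRCm38.p6.

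**Figure D4:**
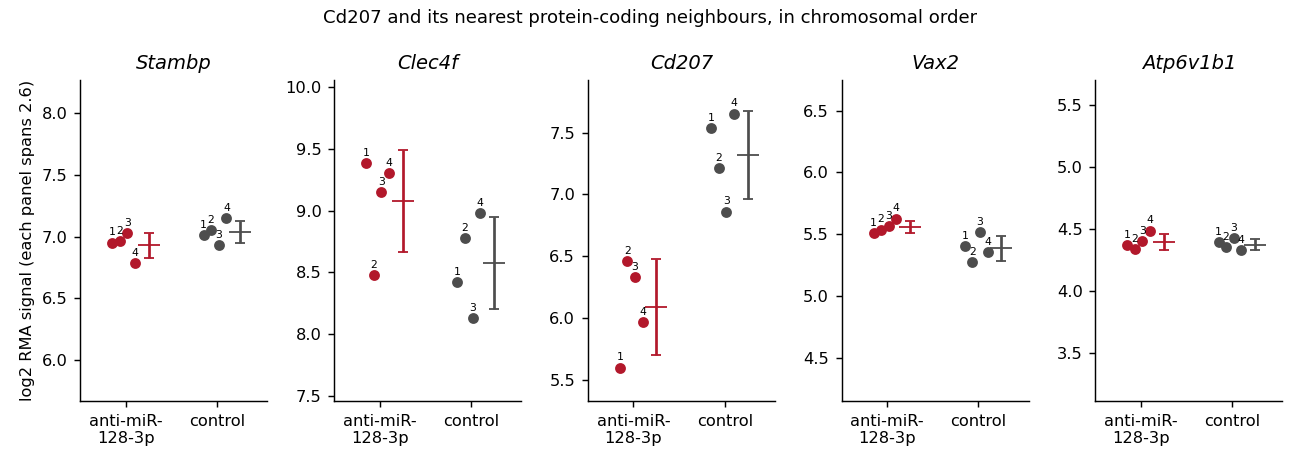
Log2 RMA signal (vertical axes, each spanning 2.6) of Cd207 and its nearest protein-coding neighbours in each liver, anti-miR-128-3p on the left and control on the right. Points are livers with their replicate number and bars are mean ± SD (n = 4). Cd207 is lower in all 4 treated livers, and Clec4f averages 9.08 in treated livers and 8.58 in control livers.

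Across 27 other C-type lectin receptor genes, 18 were higher and 9 lower (median 0.03), with 1 at an unadjusted p under 0.05 in each direction. Clec4g, of sinusoidal endothelium, differed by -0.53 ± 0.19, Ly75, the receptor DEC-205 of dendritic cells, by 0.17 ± 0.07 and Clec4a3 by 0.57 ± 0.25. Of the close relatives of Cd209a, Cd209b and Cd209d differed by -0.12 ± 0.09 and -0.05 ± 0.06, and Cd209f and Cd209c by -0.03 ± 0.06 and -0.01 ± 0.05. Cd209e and Cd209g had the other sign, at 0.05 ± 0.04 and 0.0051 ± 0.07. Of the 27 lectin genes, 9 lay below the middle of the negative control rows on every array, Cd209d (33.8% to 41.9%) and Cd209e (33.7% to 38.3%) among them. Clec4a3 was above 31.7% to 67.5% of these rows. None of the lectins passed the adjusted threshold. Of 8 other Siglec genes 3 were higher (median -0.01), among them the macrophage gene Siglec1 (0.58 ± 0.24) and the B cell gene Cd22 (0.16 ± 0.07, but 0.10 without treated replicate 1). Of 23 other integrin genes measured (24 listed) 14 were higher (median 0.02), with Itga4 at 0.16 ± 0.09 (0.09 without control replicate 3) and Itgav at -0.12 ± 0.06.

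Markers of other cells that the liver can hold differed as follows, and their part in the Cd207 difference was not tested. The score of a list is the mean of its genes' log2 signals, each centred on that gene's 8-liver mean. Of 13 Kupffer cell and macrophage genes 12 were higher in treated livers (median 0.50, but 0.30 without control replicate 3 and 0.32 without treated replicate 1), which is opposite in sign to Cd207. Mpeg1 differed by 0.80 ± 0.25 and Timd4 by 0.69 ± 0.30. Timd4 differed by 0.39 without treated replicate 1. The mean level of this list ran from 7.48 to 8.51 in treated livers and from 6.95 to 7.80 in control livers. Treated replicate 1, where Cd207 was lowest, had the highest macrophage score of 0.71, while control replicate 3, where Cd207 was the lowest of the controls, had the lowest score of -0.85.

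T and NK cell genes, which matter here because some T cells carry Itgae, had a median of 0.03 over 12 genes, but 0.13 without control replicate 4 and -0.0060 without treated replicate 1. Their levels ran from 4.72 to 4.88 in treated livers and from 4.65 to 5.07 in control livers. Of 5 sinusoidal endothelial genes 4 were lower in treated livers, the same sign as Cd207 (median -0.20), and 2 of them, Stab1 (-0.20 ± 0.07) and Clec4g, had an unadjusted p under 0.05, though none passed the adjusted threshold. Their levels ran from 7.76 to 8.27 in treated livers and from 7.83 to 8.39 in control livers. Of 9 neutrophil genes 8 were lower (median -0.35), and the score of 1.60 in control replicate 1 stood far above the range of -0.42 to -0.15 in the other controls. Without that liver the neutrophil median was 0.06 and the Cd207 difference was -1.15, and a link between them was not tested. Of the 4 B cell genes measured (5 listed) 3 were higher (median 0.06) and of 4 monocyte genes 3 (median 0.04, but -0.05 without treated replicate 3 and 0.12 without control replicate 1), and all 4 cholangiocyte genes were lower (median -0.03). The 5 hepatocyte genes measured (6 listed) averaged 12.4 to 13.1 on the log2 scale over the 8 livers, the level of the labelled tissue, with a median difference of -0.0089.

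Interferon-induced genes were higher in all 11 cases measured (12 listed), with a median difference of 0.99, opposite in sign to Cd207. All 11 had an unadjusted p under 0.05 and 0 passed the adjusted threshold by limma. The list was added after the data were seen, and it shares Irf7 with the plasmacytoid list. Ifit1 differed by 1.61 ± 0.24 and Ifit3 by 0.99 ± 0.14. Treated replicate 3 had the highest interferon score, 0.92, against 0.34 to 0.42 in the other treated livers. Cd207 in that liver was 6.33, inside the range of the other treated livers, and whether the levels are linked was not tested.

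**Figure D5:**
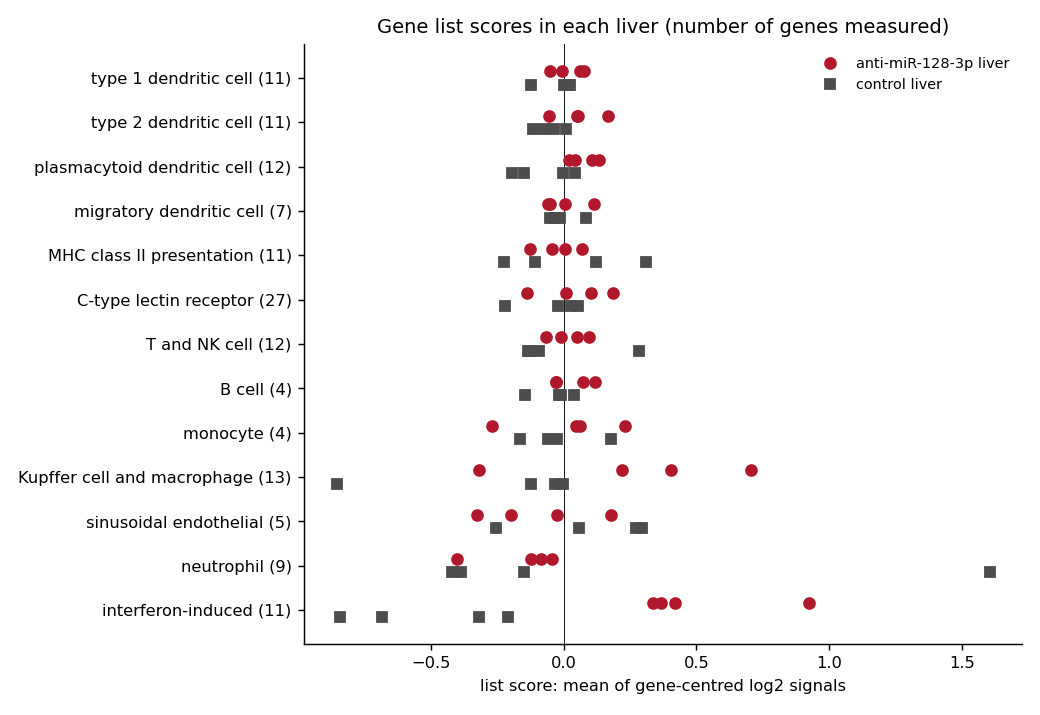
Scores of 13 gene lists (horizontal axis, mean gene-centred log2 signal) in each liver, with anti-miR-128-3p livers as red circles above control livers as grey squares. The dendritic cell lists lie near 0 with overlapping groups. The interferon-induced scores do not overlap, and control replicate 1 stands apart at 1.60 in the neutrophil list.

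Within the groups, no 2 of the 9 genes varied together from liver to liver in a way that passed adjustment. For each of 36 pairs of genes the deviations from the group means were correlated over the 8 livers, with exact two-sided permutation within groups. Of these, 1 pair had a p under 0.05 and 0 had one after adjustment over the 36. The pair was Cd209a and Siglech (r = 0.84, exact permutation p = 0.0278, adjusted p = 0.609, and rho = 0.76, exact permutation p = 0.0712, adjusted p = 0.992). Both probe sets are near the negative control rows, and r was 0.52 without the 2 livers farthest from the median of Cd209a.

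Cd207 against Itgae gave r = -0.76 (exact permutation p = 0.0556, adjusted p = 0.609) and rho = -0.69 (exact permutation p = 0.122, adjusted p = 0.992), but r = -0.11 without the 2 farthest livers. Cd207 was also set against the deviations of 11 list scores in the same way, and 0 of the 11 had an unadjusted p under 0.05. The highest r was with the sinusoidal endothelial score, 0.63 (exact permutation p = 0.148, adjusted p = 0.798), with rho 0.52 (exact permutation p = 0.243, adjusted p = 0.900) and r -0.19 without the 2 farthest livers. With the monocyte and interferon-induced scores r was 0.50 and 0.49 (exact permutation p = 0.269 and adjusted p = 0.798 for each), with rho 0.33 and 0.26 (exact permutation p = 0.524 and 0.556, adjusted p = 0.900 for each) and r 0.05 and 0.06 without the 2 farthest livers. The lowest r was with the type 2 dendritic cell score, -0.45 (exact permutation p = 0.335, adjusted p = 0.798), with rho -0.50 (exact permutation p = 0.274, adjusted p = 0.900) and r -0.67 without the 2 farthest livers. With the type 1 dendritic cell score r was 0.19 (exact permutation p = 0.675, adjusted p = 0.825), rho 0.05 (exact permutation p = 0.931, adjusted p = 0.931) and r -0.15 without the 2 farthest livers. With the macrophage score r was -0.03 (exact permutation p = 0.934, adjusted p = 0.934), rho -0.10 (exact permutation p = 0.865, adjusted p = 0.931) and r -0.31 without the 2 farthest livers.

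The genes whose deviations were most like those of Cd207, among 15313 genes of at least median signal, were Tbc1d19 (r = 0.98), Sub1 (0.97), Pja2 (0.97), Polr2b (0.95) and Eif3m (0.95) over the 8 livers. These were ranked from many candidates and have no test. Sub1, a transcriptional coactivator gene, differed between the groups by 0.24 ± 0.07, opposite in sign to Cd207, and the differences of the other 4 ran from -0.08 to -0.0113.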

How the data were processed

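Liver RNA of 8 mice was hybridised to 8 Affymetrix arrays after TRIzol extraction and biotin labelling, per the labels' protocols. The deposited values are log2 signals made with RMA, which corrects background, equalises the arrays' distributions and summarises probes, per the submitters' processing notes. Changes are therefore relative to the other transcripts, and dim probe sets give compressed differences. The sources used here give neither software version nor array batches. Array gene medians lay between 5.04 and 5.12. The number of arrays limits the precision.

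Of 72688 rows, 6732 array controls were left out. Of 65956 transcript probe sets, 31080 named exactly 1 gene after symbols were updated through Entrez IDs (RefSeq, GRCm38.p6), giving 30627 genes; for 357 with several probe sets the one with the highest mean over 8 arrays was taken. Differences are anti-miR-128-3p minus control from limma 3.58.1 in R 4.3.3 (lmFit, eBayes, two-sided, no covariate, no filter), with Benjamini-Hochberg adjustment over all genes at 0.05. The steps were tested on simulated data. Python 3.11.15 with pandas 2.3.3, scipy 1.17.1 and matplotlib 3.10.9 was used. Named genes are the 9 members, their partners, up to 4 genes of a list by smallest p, and the 5 most like Cd207; defining markers and neighbours were named after their values were seen. The members and lists were chosen with earlier results of these data known, and the interferon-induced list and the promoter windows printed were chosen after the values were seen. Alternatives were trend and robust moderation, array weights, 2 filters on dim genes, the mean of probe sets, 2 normalizations, the replicate block and leaving out each array.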

Additional observations from a re-analysis of the deposited data

Results flagged for a closer look

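In 57 genes named in the text, 114 groups of 4 livers were searched for a liver set apart from the other 3, by its gap to the nearest relative to the group's range, and 5 were found. Chance alone picks out about 5% of groups. None of the 5 was in Cd207 or the 8 dendritic cell genes. Bst2 was 7.77 in control replicate 1, against 10.2 in the next lowest control. Irf4 was 4.70 in treated replicate 4, against 4.54 in the next highest treated liver. Ly75 was 5.54 in treated replicate 3, against 5.44, and Cd80 was 4.36 in treated replicate 2, against 4.44 in the next lowest. Clec4a3 was 3.63 in control replicate 3, against 4.24 in the next lowest control.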

How the results depend on the processing

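Cd207 was lower in treated livers under all 17 alternatives, by -1.38 to -1.06 with single livers left out and by -1.25 to -1.21 otherwise, with limma adjusted p-values from 0.156 to 0.471. Most of these could not have turned its sign. Moderation, the 2 filters, the mean of probe sets and the replicate block cannot move its estimate. Since its groups do not overlap, leaving out livers or weighting arrays can change only its size. Clec9a, Cd209a, Zbtb46, Batf3 and Siglech kept their sign wherever they were tested, and Cd209a, Flt3, Itgae, Itgax, Siglech and Zbtb46 fell below the median filter. No member passed the threshold under any alternative. Genes called over the whole table numbered 0 to 1 with single livers left out (1 without control replicate 4) and 0 under the others. With dim genes below the median left out, 1512 genes had an unadjusted p under 0.05 (2337 without the filter), fewer genes being tested, and the median of the members left was 0.0615. Signs turned for small differences: Itgax was 0.0007 with array weights, and Itgae -0.0057 with quantile normalization and -0.0036 with arrays centred on their medians. With single livers left out, Itgae ran from -0.0128 to 0.0120, Flt3 from -0.0204 to 0.0106, Itgax from -0.0445 to 0.0287, Eif3m from -0.0665 to 0.0597, Tbc1d19 from -0.0902 to 0.0149 and Atp6v1b1 from -0.0055 to 0.0449. Without control replicate 1 and treated replicate 3 together, an alternative added after seeing the data, Flt3 was 0.0063, Flt3l -0.0102, Snx22 0.0176 and Bst2 -0.0173; Cd207 was -1.23. The cause was not tested. With single livers left out, the sign of the median turned in 10 of 21 gene lists. Replicate numbers did not pair the samples: deviations of same-numbered livers correlated at -0.15 to -0.04. A replicate block cannot move a difference in this balanced design, so that of Cd207 stayed at -1.22. With the block its SE was 0.25, against 0.22 without it (limma adjusted p = 0.471 with the block), and 0 genes were called. Low signal over the negative control rows limits the dimmer members most.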
